A study of Homo sapiens with 6 samples.

Results

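The SOX, PAX and T-box factors are 3 families of DNA-binding transcription factors, and every gene of the files whose symbol placed it in one of them was taken as a member, whatever its counts. The rule found 45 members among 60609 genes: 19 SOX genes, 9 PAX genes and 17 T-box genes, the last including TBXT, EOMES, TBR1 and MGA. Poly(A) RNA was counted per gene in 6 libraries of K-562, an established human leukaemia line with erythroid and megakaryocytic features. In all 6, the endogenous EP400, the ATPase that the TIP60 chromatin complex is built around, carried the FKBP12 F36V degradation tag (dTAG) and had been removed by 500 nM of the degrader dTAGV-1 for 24 h. A transgene at the AAVS1 locus supplied the remaining EP400: the full protein in 3 libraries (WT), or EP400 lacking the SANT and HD domains that bind the TRRAP module in the other 3 (Delta-TRRAP). The study describes 1 clone per complemented line, so clone and genotype cannot be told apart, and the p-values below measure the spread between libraries of a clone and not between clones.

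SOX factors bind DNA through an HMG box and bend it, PAX factors bind through a paired domain, and T-box factors bind through the domain that names them. Most members are switched on in narrow windows of embryonic development, where they set the identity of tissues such as neural crest, cartilage, vessels, eye, kidney, thyroid and heart, and their promoters lie in regions that Polycomb complexes keep silent elsewhere. A few have roles in blood, among them PAX5 in B cells, TBX21 and EOMES in T and NK cells, and SOX6, which helps to silence embryonic globin in red cell precursors. MGA differs from the rest in that it is broadly expressed and joins the T-box to a domain that pairs with MAX in a Polycomb complex, PRC1.6.

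In brief, the members split into a small expressed set and a large silent set. In 14 members no read was counted in any of the 6 libraries, and 18 had enough reads to test (a mean normalized count, that is a count scaled for library size, of at least 5 over the 6 libraries). Of those 18, 9 were called changed in Delta-TRRAP by edgeR's quasi-likelihood test, which here means a Benjamini-Hochberg adjusted p no higher than 0.01 together with a change of 2-fold or more. The same call was made for 22.6% of the 19114 genes tested. PAX3, SOX30, SOX13 and TBX3 rose (4 members, with 16.5% of all tested genes called higher), and SOX18, TBX15, PAX9, SOX4 and SOX6 fell (5 members, with 6.08% of all tested genes called lower). No test was made of whether the members differ from other genes.

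Reads counted in genes numbered 39966818 to 42616061 per WT library and 35076835 to 38491513 per Delta-TRRAP library. EP400 itself did not pass the test (log2 fold change 0.14 ± 0.11 SE, edgeR adjusted p = 0.272). That count does not check the labels, since the tagged endogenous gene is still transcribed in both groups and both transgenes carry most of EP400. Over all tested genes the median log2 fold change was 0.03 with the scaling used here, and 0.17 when libraries were scaled to their totals. The members together took a share of 0.0313% to 0.0339% of each WT library and of 0.0271% to 0.033% of each Delta-TRRAP library.

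The 250 bases before the start of transcription are shown for the 3 tested members that were near 0 in WT and for 3 of those that fell, since the sequence there is a property that the expression values did not set. They come from RefSeq on GRCh38.p14, are read 5′ to 3′ on the strand of the gene, and have each CG dinucleotide, the site of DNA methylation, in capitals. The first 3 are PAX3 (chr2:222298999-222299248, minus strand), SOX30 (chr5:157671481-157671730, minus strand) and SOX13 (chr1:204072865-204073114, plus strand), which rose. The next 3 are SOX6 (chr11:16738478-16738727, minus strand), PAX9 (chr14:36657318-36657567, plus strand) and SOX4 (chr6:21593501-21593750, plus strand), which fell. The SOX6 stretch precedes one of several RefSeq starts and lies inside the span of the gene in GENCODE, whose outermost start is farther upstream.
PAX3: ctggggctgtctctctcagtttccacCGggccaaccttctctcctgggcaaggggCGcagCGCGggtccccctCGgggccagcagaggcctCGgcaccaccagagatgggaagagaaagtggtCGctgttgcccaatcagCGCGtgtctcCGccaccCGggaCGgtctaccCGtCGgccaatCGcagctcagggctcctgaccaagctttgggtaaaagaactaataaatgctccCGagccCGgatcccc
SOX30: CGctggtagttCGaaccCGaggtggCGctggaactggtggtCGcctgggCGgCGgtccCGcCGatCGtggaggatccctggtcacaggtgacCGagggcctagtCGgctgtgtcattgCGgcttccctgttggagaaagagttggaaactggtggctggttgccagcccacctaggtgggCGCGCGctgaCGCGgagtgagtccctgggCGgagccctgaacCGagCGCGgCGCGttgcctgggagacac
SOX13: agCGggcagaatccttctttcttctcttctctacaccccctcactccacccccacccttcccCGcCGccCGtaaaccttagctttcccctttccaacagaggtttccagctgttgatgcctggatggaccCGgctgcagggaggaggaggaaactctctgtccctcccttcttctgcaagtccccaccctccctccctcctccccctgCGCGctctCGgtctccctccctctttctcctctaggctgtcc
SOX6: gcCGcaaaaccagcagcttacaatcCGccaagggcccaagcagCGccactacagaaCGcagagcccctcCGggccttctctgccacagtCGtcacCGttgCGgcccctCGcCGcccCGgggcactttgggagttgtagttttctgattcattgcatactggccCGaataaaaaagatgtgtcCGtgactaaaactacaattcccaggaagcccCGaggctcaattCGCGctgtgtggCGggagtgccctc
PAX9: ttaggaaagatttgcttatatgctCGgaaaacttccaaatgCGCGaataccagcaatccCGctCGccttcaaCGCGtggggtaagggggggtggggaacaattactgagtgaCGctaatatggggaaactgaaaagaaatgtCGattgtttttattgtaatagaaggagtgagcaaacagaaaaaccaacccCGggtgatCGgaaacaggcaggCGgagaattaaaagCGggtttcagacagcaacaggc
SOX4: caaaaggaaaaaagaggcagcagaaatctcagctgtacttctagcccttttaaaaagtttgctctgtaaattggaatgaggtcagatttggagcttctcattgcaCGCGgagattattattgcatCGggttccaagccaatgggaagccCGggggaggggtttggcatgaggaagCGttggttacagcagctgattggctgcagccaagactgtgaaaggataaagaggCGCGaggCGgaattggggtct

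These stretches hold 17 CG dinucleotides in PAX3, 24 in SOX30, 8 in SOX13, 17 in SOX6, 13 in PAX9 and 8 in SOX4, so the rising and the falling members do not separate by this count. Full RefSeq windows, which add the first transcribed bases to these stretches, were matched for 32 of the 45 members, with 53 windows in all because several genes have more than one start. The median member window held 19 CG dinucleotides, and the median over all 35116 windows was 14, with quartiles of 4 and 28. A few short motifs were searched on both strands. Among the 53 member windows, GGGCGG, the GC box, was in 24 and in 45% of all windows. AGATAA, a form of the site of GATA factors, was in 3 and in 10.3% of all windows. CACGTG, the E-box to which MYC and MAX can bind, was in 1 and in 7.26% of all windows. The SOX sites AACAAAG and ACAATGG were in 1 and in 5 member windows, and in 5.2% and 3.16% of all windows. GGTGTGA, a T-box half-site, was in 2 and in 3.45% of all windows. None of these motifs contains another, and which start K-562 uses cannot be read from counts per gene. No window was matched for PAX1, SOX7, SOX8, SOX9, SOX10, SOX11, SOX14, SOX15, SOX17, SOX18, TBX2, TBX3 and TBX15.

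**Figure D1:**
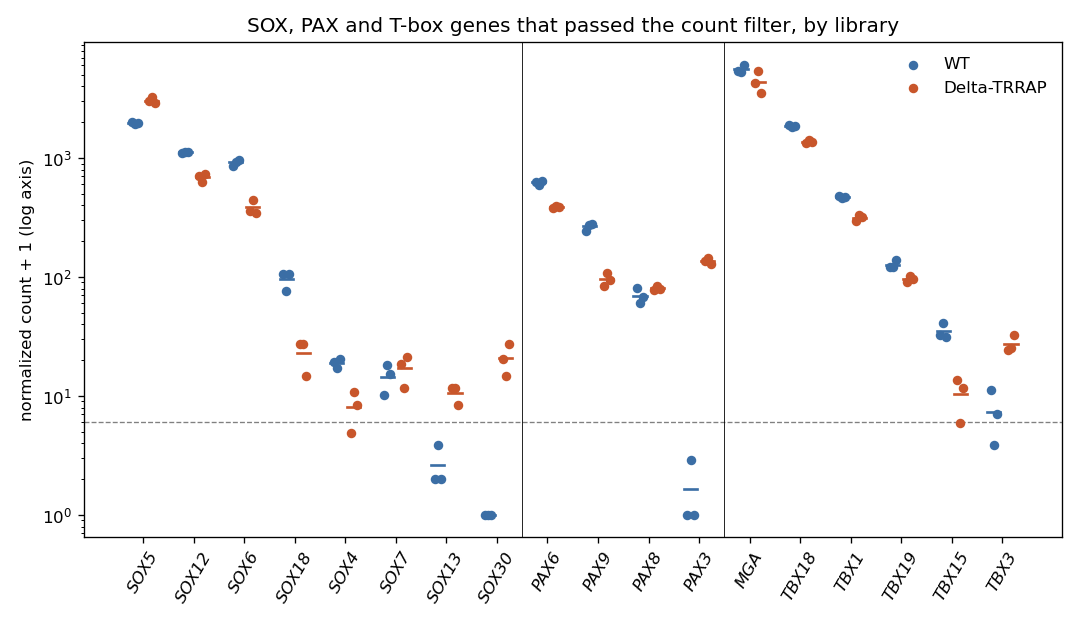
Normalized counts of the 18 tested members plus 1 in each of the 6 libraries, on a logarithmic axis, with 1 point per library and a colour per group. The PAX3 points of the groups lie farthest apart, and those of MGA, PAX8 and SOX7 overlap.

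Of the 45 members, 30 were near 0 in WT, meaning a WT mean normalized count under 5, and 15 were expressed. Only 3 of the 30 were tested: PAX3, SOX30 and SOX13. They passed the filter through their Delta-TRRAP libraries, so that all 3 were higher there follows in part from how they were selected. Among all tested genes with a WT mean under 5, 74.8% of 1529 were called higher. The limits fell between close values: TBX3, with a WT mean of 6.37, counted as expressed and SOX8, with 3.97, as near 0, and SOX13 passed the filter with a mean of 5.64 where PAX5 at 4.89 and SOX8 at 4.86 did not.

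PAX3 is a factor of neural crest, melanoblasts and muscle precursors. Its normalized counts were 0, 1.92 and 0 in the WT libraries and 135, 144 and 127 in the Delta-TRRAP libraries. The groups were far apart. In raw reads, 2 were counted in WT, both in replicate 2, against 406 in Delta-TRRAP, a depth-scaled ratio of 204 with a 95% interval of 56.2 to 1690 that covers counting error only. PAX3 rose with a log2 fold change of 7.43 ± 0.36 (SE, n = 3 per group, edgeR adjusted p = 9.43e-11). That fitted value went from 6.92 to 10.1 when single libraries were left out, with 10.1 reached without WT replicate 2, where no WT read remained.

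SOX30, which in males is needed to complete sperm formation, was at 0 in all 3 WT libraries and at 19.6, 13.6 and 26.4 normalized counts in Delta-TRRAP. Against a floor of 3 counts per library, SOX30 was at least 6.63-fold higher in Delta-TRRAP, from 59 reads in all (edgeR adjusted p = 6.04e-06). SOX13, a SoxD factor known from T cells and from embryonic development, was at 1.01, 2.88 and 1.02 in WT and at 10.8, 10.7 and 7.40 in Delta-TRRAP. It rose by a log2 fold change of 2.46 ± 0.54 (edgeR adjusted p = 0.000825), from 5 WT reads against 29 Delta-TRRAP reads. The depth-scaled ratio of those reads was 5.84, with a 95% counting interval of 2.24 to 19.3. Its log2 fold change was 3.09 without WT replicate 2, and it was under the filter, and so untested, without Delta-TRRAP replicate 1 or 2. Per kilobase of exon, the Delta-TRRAP level was 17.1 normalized counts for PAX3, close to the 16.6 of PAX9 in the same libraries, and it was 5.7 for SOX30 and 1.3 for SOX13.

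TBX3, a T-box repressor of limb, heart and mammary development, was low in WT at 10.1, 2.88 and 6.10 normalized counts and stood at 23.5, 24.4 and 31.7 in Delta-TRRAP. The groups did not overlap, and TBX3 rose 4.13-fold (log2 fold change 2.04 ± 0.36, edgeR adjusted p = 0.00012). It was the only expressed member called higher. Of the close relatives of TBX3, TBX2, TBX4 and TBX5 had no read in any library.

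The remaining 27 members near 0 could not be tested. Those without a read in any library were SOX2, SOX3, SOX10, SOX14 and SOX17, then PAX1 and PAX4, and TBX2, TBX4, TBX5, TBX10, TBX20, TBX22 and TBXT. They include the pluripotency factor SOX2, the neural crest factor SOX10, the cardiac factors TBX5 and TBX20, and TBXT, the founder of the T-box family. A count of 0 still allows up to 3 counts in a library. A further 9 members had 1 to 9 reads over the 6 libraries: SOX1, SOX9, SOX11, SOX15, SOX21, PAX2, PAX7, EOMES and TBX21. PAX7, the nearest relative of PAX3, had 0 reads in WT and 2 in Delta-TRRAP. PAX5, the B-cell factor, had 3, 3 and 3 reads in WT and 4, 6 and 10 in Delta-TRRAP. SOX8, of the group that includes SOX9 and SOX10, had 4, 5 and 3 reads in WT and 5, 4 and 8 in Delta-TRRAP. TBR1 had 1, 1 and 2 reads in WT and 0, 3 and 5 in Delta-TRRAP. TBX6 had 2, 2 and 4 reads in WT and 0, 1 and 2 in Delta-TRRAP. These reads are too few for a test, so no statement on a difference is made for these members.

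The 15 members expressed in WT were all tested, and 6 of them were called, 1 higher (TBX3) and 5 lower. Over all genes with a WT mean of at least 5, 18.1% were called, 11.5% higher and 6.61% lower. By the adjusted p alone, which 58.3% of all tested genes passed, 12 of the 15 passed, 2 higher and 10 lower, beside 30.7% of all genes higher and 27.6% lower. The median log2 fold change was -0.58 over the expressed members and -0.42 over all 18 tested, a median that is the same with SOX30 at its lower bound.

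**Figure D2:**
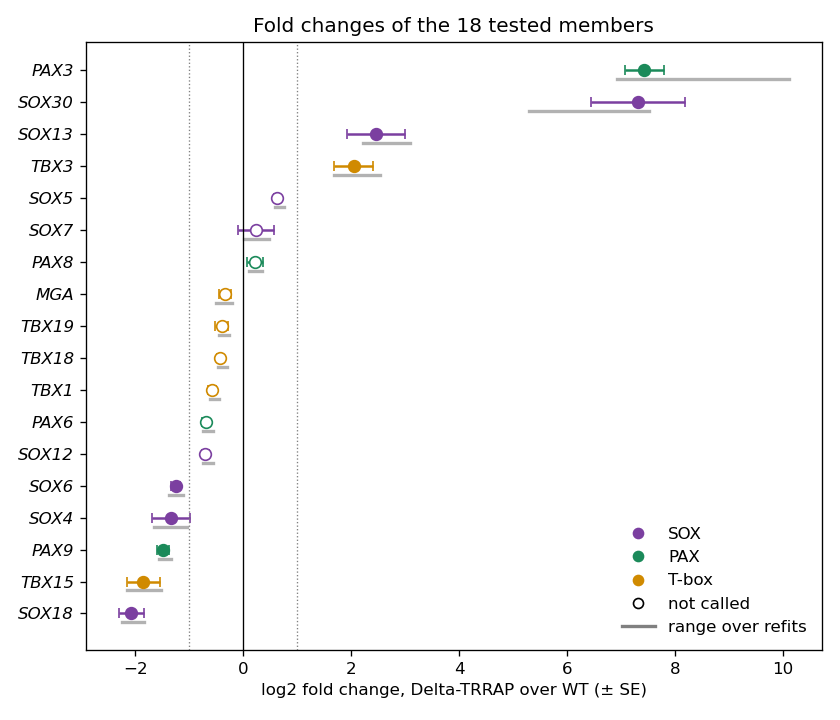
Log2 fold change of each tested member in Delta-TRRAP over WT with its standard error, from edgeR, where open circles did not meet the call, dotted lines mark a 2-fold change and grey bars give the range over alternative fits. The fitted values run from -2.08 for SOX18 to 7.43 for PAX3, 11 of the 18 are below 0, and the position of SOX30, without a WT read, depends on the fit.

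Among the expressed SOX genes, SOX18 showed the largest fall. SOX18 belongs with SOX7 and SOX17 to the SoxF factors of blood and lymph vessels. Its normalized counts were 105, 74.8 and 105 in WT and 26.5, 26.3 and 13.8 in Delta-TRRAP. The groups did not overlap, and SOX18 fell 4.22-fold (log2 fold change -2.08 ± 0.23, edgeR adjusted p = 8.97e-07). SOX7 had 9.12, 17.3 and 14.2 in WT and 17.7, 10.7 and 20.1 in Delta-TRRAP, with overlapping groups (log2 fold change 0.24 ± 0.33, edgeR adjusted p = 0.545). SOX7 overlaps PINX1 on the same strand, so reads in the shared stretch could not be assigned with certainty. SOX17 had no read.

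The SoxD genes went in both directions. These factors have no activation or repression domain of their own and act with partners, and SOX5 and SOX6 work together with SOX9 in cartilage. SOX6 had 863, 926 and 971 normalized counts in WT and 361, 447 and 345 in Delta-TRRAP. Each Delta-TRRAP library was under the lowest WT value, and SOX6 fell 2.39-fold (log2 fold change -1.26 ± 0.09, edgeR adjusted p = 5.12e-09). SOX5 had 2013, 1950 and 1970 in WT and 3002, 3250 and 2878 in Delta-TRRAP. SOX5 rose 1.54-fold, without overlap and short of the 2-fold limit (log2 fold change 0.62 ± 0.05, edgeR adjusted p = 8.3e-08). SOX13, described above, rose from near 0. Per kilobase of exon, the level of SOX5 went from 175 to 270 normalized counts and that of SOX6 from 45.8 to 19.1, so SOX5 was the more abundant of the pair in both groups.

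Both tested SoxC genes fell. SOX12 had 1098, 1134 and 1123 in WT and 699, 626 and 737 in Delta-TRRAP, a 1.63-fold fall without overlap (log2 fold change -0.70 ± 0.06, edgeR adjusted p = 1.32e-07). SOX4, a factor of lymphoid and neural progenitors, had few reads, at 18.2, 16.3 and 19.3 in WT and 3.92, 9.75 and 7.40 in Delta-TRRAP. SOX4 fell 2.53-fold (log2 fold change -1.34 ± 0.35, edgeR adjusted p = 0.00334). That call was lost with DESeq2 (adjusted p = 0.0163) and when WT replicate 1 (0.0105), WT replicate 3 (0.0116) or Delta-TRRAP replicate 1 (0.0211) was left out, with the same direction each time. The third SoxC gene, SOX11, had 2 reads in all.

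Among the PAX genes, PAX9, a factor of teeth, palate, thymus and pharyngeal pouches, had 244, 271 and 280 normalized counts in WT and 83.4, 106 and 94.1 in Delta-TRRAP. PAX9 fell 2.80-fold with no overlap (log2 fold change -1.49 ± 0.11, edgeR adjusted p = 1.62e-08). PAX6, the factor of eye, brain and islet development, had 634, 597 and 642 in WT and 377, 391 and 386 in Delta-TRRAP. PAX6 fell 1.62-fold, again without overlap (log2 fold change -0.70 ± 0.07, edgeR adjusted p = 1.96e-07). PAX8, of thyroid and kidney, had 80.0, 59.5 and 67.2 in WT and 77.5, 82.9 and 78.3 in Delta-TRRAP, and the groups overlap (log2 fold change 0.21 ± 0.15, edgeR adjusted p = 0.227). PAX8-AS1, the RNA on the opposite strand of PAX8, had a mean of 1786 ± 53.1 (SD) in WT and 1883 ± 46.3 in Delta-TRRAP, and did not pass the test (edgeR adjusted p = 0.198). Counting used the strand, which separates PAX8 from PAX8-AS1.

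The T-box genes expressed in WT other than TBX3 all had negative fold changes. TBX15, a factor of skeleton and muscle, had 31.4, 40.3 and 30.5 normalized counts in WT and 12.7, 4.87 and 10.6 in Delta-TRRAP. TBX15 fell 3.61-fold (log2 fold change -1.85 ± 0.31, edgeR adjusted p = 6.99e-05). Its relatives TBX1, of the pharyngeal arches, and TBX18, of the sinus node and ureter, fell by less than 2-fold. TBX1 had 482, 463 and 467 in WT and 292, 332 and 319 in Delta-TRRAP (66.8% of WT, edgeR adjusted p = 5.44e-06). TBX18 had 1914, 1814 and 1847 in WT and 1342, 1412 and 1356 in Delta-TRRAP (73.7% of WT, edgeR adjusted p = 1.78e-06). In none of these 3 relatives did the groups overlap. TBX19, a pituitary factor, had 120, 120 and 138 in WT and 90.2, 100 and 95.2 in Delta-TRRAP, a 1.32-fold fall near the limit (edgeR adjusted p = 0.00911, and 0.00581 to 0.0647 over the alternatives). It was above 0.01 with DESeq2 and whenever 1 library, whichever it was, was left out (0.012 to 0.0452).

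**Figure D3:**
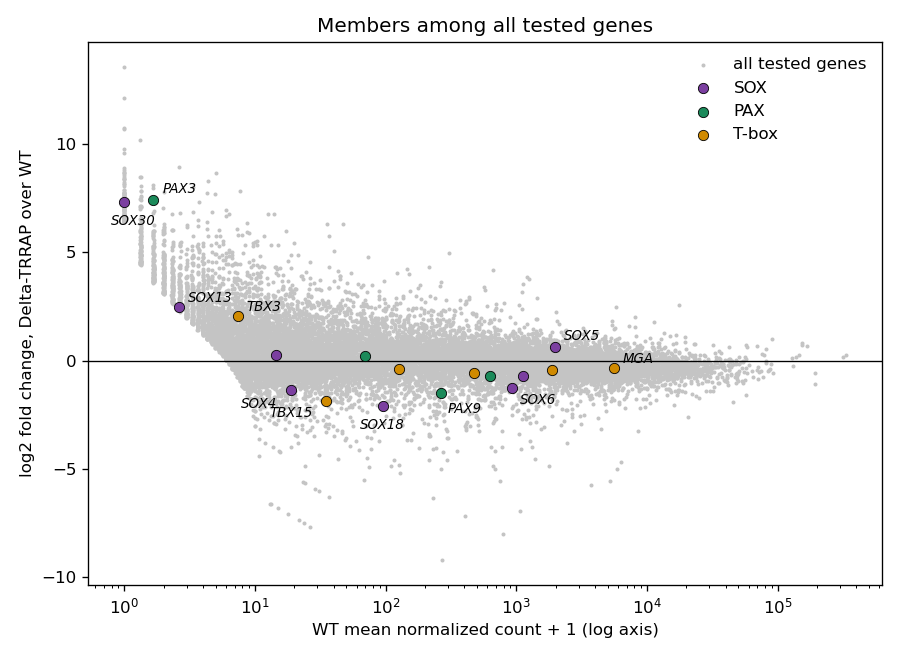
Log2 fold change of all tested genes against their mean normalized count in WT plus 1, on a logarithmic axis, with the 18 tested members in colour by family. The 3 members near 0 in WT sit at the left with positive values, and 11 of the members lie below 0.

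MGA had the highest counts of the members, at 5364, 5307 and 6068 normalized counts in WT and 4279, 5388 and 3503 in Delta-TRRAP. The Delta-TRRAP libraries spread widely and replicate 2 reached into the WT range, so MGA did not pass the limit (log2 fold change -0.35 ± 0.11, edgeR adjusted p = 0.0112). Leaving out Delta-TRRAP replicate 2 took the log2 fold change of MGA to -0.51 (adjusted p = 1.18e-06), and leaving out replicate 3 took it to -0.21 (adjusted p = 0.0232). Over all alternatives the adjusted p of MGA ran from 2.29e-10, with no filter on low counts, to 0.0906 with DESeq2. The exons of MGA span 20.1 kb. Between Delta-TRRAP replicates 3 and 2, MGA differed by a log2 ratio of -0.62, the median gene with at least 10 kb of exon by -0.14 (1872 genes) and the median of all genes by -0.01 (11549 genes with at least 100 normalized counts in replicate 2). The part of transcript length in the MGA values was not tested further.

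The partners of MGA in PRC1.6 were all expressed. Of 14 listed, 9 passed the adjusted p, 1 higher and 8 lower, each by less than 2-fold, where 30.7% of all tested genes were higher and 27.6% lower by that limit. Their median log2 fold change was -0.36, with a range from -0.62 to 0.18. CBX3, which reads methylated histone H3, had the highest counts and fell from 26290 ± 1637 (SD) to 17360 ± 915.5 normalized counts (log2 fold change -0.60 ± 0.06, edgeR adjusted p = 2.77e-07). The sequence-specific partner E2F6 fell by 0.54 ± 0.05 on the log2 scale and MAX by 0.35 ± 0.05 (edgeR adjusted p = 1.51e-07 and 2.01e-05). RYBP was the partner that rose, by 0.18 ± 0.05 (edgeR adjusted p = 0.00566). E2F6, MAX and RYBP were named after their values were seen.

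Each member was set beside the tested genes within 2 Mb of it on GRCh38. For 6 called members the median of the neighbours was near 0 or of the other sign. PAX3 (chr2:222199887-222298998, minus strand) had 9 tested neighbours with a median log2 fold change of 0.12, and 1 of them was called higher. SOX6 (chr11:15966449-16739591, minus strand) had 35 with a median of -0.06, and PAX9 (chr14:36657568-36679362, plus strand) had 21 with a median of -0.03. TBX15 (chr1:118883046-118989556, minus strand) had 25 with a median of -0.11. SOX4 (chr6:21593751-21598619, plus strand) had 9 with a median of 0.04. TBX3 (chr12:114670255-114684175, minus strand) rose beside 15 neighbours with a median of -0.51, and 2 of those were called lower. For these 6 members the log2 fold change lay 1.2 units or more from the median of the neighbours. The copy number of these regions was not tested.

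For 3 called members the neighbours moved the same way. SOX30 (chr5:157625679-157671480, minus strand) had 17 tested neighbours with a median log2 fold change of 1.61, and 13 of them were called higher. SOX18 (chr20:64047582-64049639, minus strand), near the end of its chromosome arm, had 57 with a median of -0.70, and 13 were called lower and 1 higher. SOX13 (chr1:204073115-204127743, plus strand) had 56 with a median of 0.44, and 22 were called higher and 3 lower. Relative to these neighbours SOX18 was lower by a log2 difference of -1.38, and SOX13 higher by 2.02. SOX7 (minus strand of chromosome 8) lay among 27 genes with a median of 0.78, 13 of them called higher, and stood 0.55 below that median, so its sign turned (log2 difference -0.55). The part of the neighbourhood in these values was not tested.

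**Figure D4:**
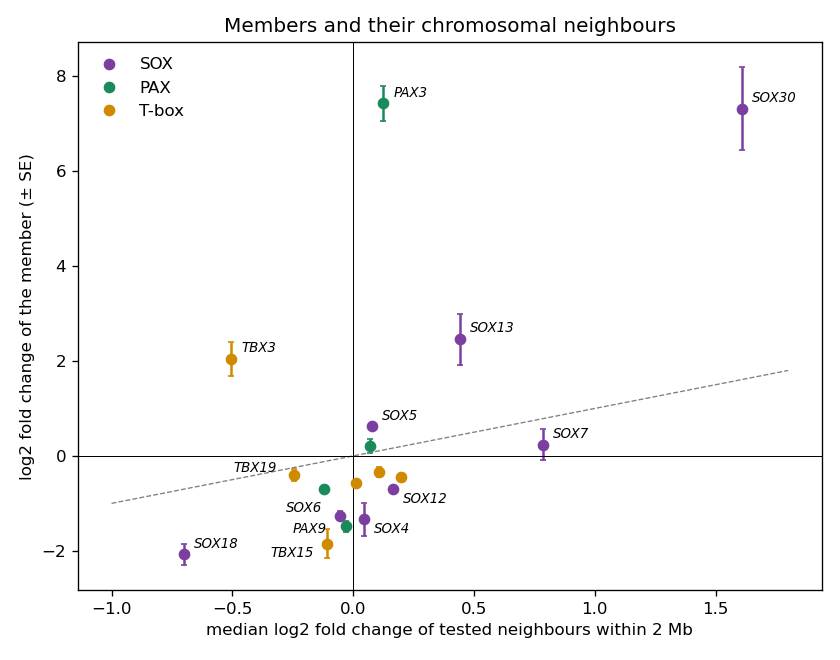
Log2 fold change of each tested member with its standard error, against the median log2 fold change of the tested genes within 2 Mb on either side, with a dashed line where both are equal. The neighbours of SOX30 and SOX7 have the highest medians (1.61 and 0.78) and those of SOX18 the lowest (-0.70).

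Genes known to act with or downstream of the members were taken from lists by tissue. Over all tested genes, 22.6% were called and 58.3% passed the adjusted p, the shares to set beside the counts in each list. In the neural crest list, which goes with PAX3 and SOX10, 5 of 11 genes were tested and DCT alone was called, rising from 97.3 ± 12.1 to 201 ± 25.8 normalized counts (log2 fold change 1.04 ± 0.13, edgeR adjusted p = 3.76e-06). DCT makes melanin precursors, and MITF, the master factor of melanocytes, passed the adjusted p in the other direction at 70.9% of WT. TYR, EDNRB and RET had no read in any library. In the cartilage list, 5 of 10 were tested, with COL9A1 higher (9.55 ± 4.2 to 98.1 ± 19.2) and MATN1 lower (115 ± 14.3 to 23.2 ± 6.1), both matrix genes and both past the limits (edgeR adjusted p = 2.92e-08 and 4.52e-08). In the globin list, which goes with SOX6 and also holds the globin repressors BCL11A and ZBTB7A, 6 of 7 were tested. BCL11A was under the filter, and ZBTB7A and HBB did not pass the test (edgeR adjusted p = 0.14 and 0.904). Embryonic HBE1 rose from 9.71 ± 4.28 to 41.1 ± 5.98 (edgeR adjusted p = 1.33e-05), and HBD, the delta chain of adult haemoglobin, fell from 1416 ± 90 to 514 ± 27.3 (edgeR adjusted p = 3.92e-11). HBG1 and HBG2 had higher WT means, of 2790 and 3668. Their groups overlapped, with log2 fold changes of -0.41 ± 0.12 and -0.05 ± 0.12 (edgeR adjusted p = 0.00664 and 0.744). HBG1 and HBG2 are near-identical copies, so their counts are uncertain.

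In the endothelial list, which goes with SOX18 and SOX7, 7 of 11 were tested, with 3 called higher and 1 further gene lower by adjusted p. Over all tested genes, 16.5% were called higher, 6.08% were called lower and 58.3% passed the adjusted p. FLT1, a VEGF receptor, rose from a mean of 2.65 to 204 normalized counts (log2 fold change 6.20 ± 0.22, edgeR adjusted p = 2.69e-12), while SOX18 fell. The angiopoietin receptor TEK rose from 2.29 to 34.0 (edgeR adjusted p = 3.93e-07), and ROBO4, with 0 reads in WT and 31 in Delta-TRRAP, was at least 3.46-fold higher (edgeR adjusted p = 4.48e-05). FLT1, TEK and ROBO4, like GZMB and EBF1 below, had a WT mean under 5 and passed the filter through their Delta-TRRAP libraries. Of all tested genes with such a WT mean, 74.8% were called higher. PECAM1, the gene of this list with the highest counts, fell to 59.5% of its WT mean of 674 (edgeR adjusted p = 2.35e-07). CDH5 had 1 read in WT and 0 in Delta-TRRAP. In the T and NK cell list, 4 of 8 were tested, 1 called higher and 2 lower. GZMB rose (2.67 to 58.1) and PRF1 fell (137 to 30.4), both encoding parts of the killing granule (edgeR adjusted p = 2.84e-08 and 1.91e-08). NKG7, of the same granules, fell from 69 reads in WT to 2 in Delta-TRRAP, a ratio of 0.0292 with a 95% counting interval of 0.00347 to 0.11 (edgeR adjusted p = 1.02e-06). In the B-cell list 5 of 10 were tested, and 4 passed the adjusted p, 3 of them higher and 1 lower. EBF1, a factor of early B cells, rose from 5 reads in WT to 85 in Delta-TRRAP, a ratio of 17.1 with a 95% counting interval of 7.06 to 54.1 (edgeR adjusted p = 3.01e-06). The surface proteins CD22 and CR2 rose by 1.78-fold and 1.95-fold (edgeR adjusted p = 0.000107 and 2.67e-05). The lymphoid factor IKZF3 fell from 318 ± 39 to 80.2 ± 5.73 (edgeR adjusted p = 1.15e-09).

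The mesoderm, the pluripotency and the eye, brain and islet lists held few genes with enough reads to test. Of the members that go with the lists of this paragraph, PAX6, PAX8 and TBX18 were expressed in WT. In the mesoderm list 1 of 9 was tested, the Notch ligand DLL3, which fell from 149 ± 11.4 to 63.2 ± 11.3 (edgeR adjusted p = 1.61e-06). In the pluripotency list 1 of 8 was tested, DPPA4, which rose from 16.6 ± 7.9 to 76.3 ± 5.31 (edgeR adjusted p = 9.59e-07). In the eye, brain and islet list 1 of 10 was tested, OTX2, with 0 reads in WT and 46 in Delta-TRRAP, at least 5.10-fold higher. OTX2 passed the filter only through its Delta-TRRAP libraries. Of the heart list 5 of 10 were tested and 1 was called higher, GJA5, with 1 read in WT and 43 in Delta-TRRAP. GJA5 also passed the filter only through its Delta-TRRAP libraries. HAND2, the gene of the heart list with the highest counts, rose by less than 2-fold, to 171% of its WT level of 215 (edgeR adjusted p = 2.01e-06). Of the kidney and thyroid list 3 of 10 were tested and 1 was called lower, GATA3 (19.9 to 8.63 normalized counts). WT1 (the Wilms tumour gene), with the highest counts of that list, fell by less than 2-fold. WT1 was at 59.5% of its level of 1908 in the WT group (edgeR adjusted p = 6.35e-09). Among 8 other HMG-box factors, 6 were tested and 1 called, LEF1, the Wnt effector, which fell from 2059 ± 150 to 874 ± 34 (edgeR adjusted p = 1.39e-10).

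**Figure D5:**
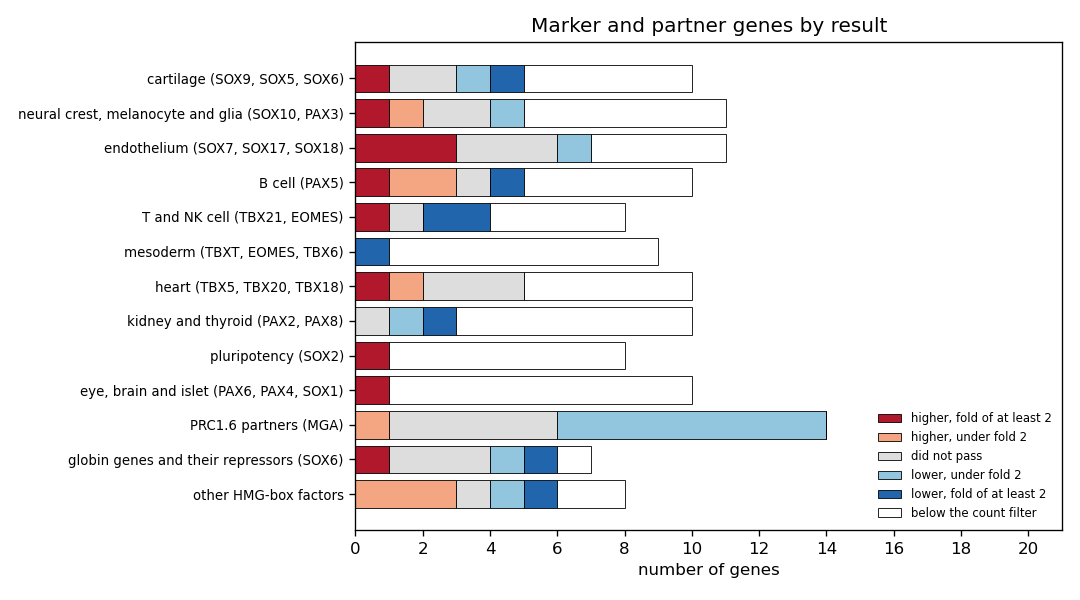
Number of genes in each list that goes with the members, stacked by result: higher or lower with and without a 2-fold change, not past the adjusted p of 0.01, or under the count filter. The cartilage, B-cell, globin and T and NK cell lists hold genes called in both directions, and 8 of the 14 PRC1.6 partners are lower by less than 2-fold.

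Markers of other cell types were measured beside these results. For comparison, 16.5% of all tested genes were called higher and 6.08% lower. Of 11 erythroid markers all were tested, 1 called higher (the globin gene HBZ, 1439 to 10660) and 1 lower (TFRC, 192100 to 90170). Their summed level was 229132 to 231543 normalized counts in the WT libraries and 146164 to 150362 in the Delta-TRRAP libraries. Of 8 fibroblast markers 4 were tested and 2 called higher, COL1A2 (1.62 to 876) and PDGFRB (1.65 to 9.34). Both were near 0 in WT and passed the filter through their Delta-TRRAP libraries. COL1A1 (28.69 to 30.05) and DCN (11.61 to 8.90), the other tested fibroblast markers, did not pass the test (edgeR adjusted p = 0.862 and 0.454). The summed fibroblast level lay between 35.5 and 57.0 in WT and between 910 and 973 in Delta-TRRAP. In Delta-TRRAP almost all of it was COL1A2, and LUM and PDGFRA were at 0 in every library. Of 7 neural markers 3 were tested, with a summed level between 216 and 274 in WT and between 448 and 486 in Delta-TRRAP, mostly SYP, and NEFL and STMN2 were at 0. Of 5 epithelial markers 4 were tested and EPCAM was called lower (6994 to 2399), while KRT18 (5220 to 8306) and KRT19 (2796 to 5127) rose by less than 2-fold (edgeR adjusted p = 1.65e-08 and 6.72e-10). The summed epithelial level lay between 23730 and 24435 in WT and between 25067 and 26805 in Delta-TRRAP. The part of these shifts in the rise of PAX3 and SOX30 was not tested, and in bulk RNA fewer cells with a transcript cannot be told from less of it per cell.

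As a description beside other developmental families, 20 of 39 HOX cluster genes were tested and 8 were called, each of them higher, with a median log2 fold change of 0.47 over the tested genes. Of 46 forkhead genes 27 were tested and 6 called, 3 higher and 3 lower, with a median of 0.09. The SOX, PAX and T-box genes had 9 of 18 called, 4 higher and 5 lower, with a median of -0.42. With no filter on low counts their median was -0.02, where that of all genes went from 0.03 to 0.115. The HOX and forkhead medians are those with the filter. By family, 5 of 8 tested SOX genes, 2 of 4 PAX genes and 2 of 6 T-box genes were called. Over all tested genes, 22.6% were called, 16.5% higher and 6.08% lower. These differences between families were not tested. In 15 of the 18 members the groups did not overlap, as in 71.1% of all tested genes.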

How the data were processed

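The authors aligned poly(A) RNA-seq reads to hg38 with STAR, kept uniquely mapping reads and counted them per GENCODE gene with HTSeq 2.0.2 in reverse-stranded union mode. The deposited values are raw counts per gene, used here as they are. The authors' normalized table, including 3 columns of another condition, and their table of fold changes and p-values were not used. Groups and replicate numbers came from the sample titles.

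The test was edgeR's quasi-likelihood F test (version 4.0.16, R 4.3.3) with TMM scaling and group as the only term, over all genes whose mean normalized count reached 5, that is 19114 of the 34998 genes with a count. Calls needed a Benjamini-Hochberg adjusted p no higher than 0.01 over all tested genes and a change of 2-fold or more, limits taken from the methods of the study. Normalized counts were obtained by dividing each count by its TMM-scaled library total, with the 6 scaled totals set to a geometric mean of 1. Errors are SD over 3 libraries for levels and SE for log2 fold changes. The study describes the 3 libraries of each group as biological replicates of a line, so the p-values measure the spread between those replicates. Pairs within a group differed by 5.43 to 17.5 times the chi-square of counting alone. Same-numbered libraries did not deviate together (correlations of -0.01, -0.04 and -0.02), so numbers were not used as pairs. Counting intervals are exact and cover counting error only. The script was tested on simulated data with known fold changes.

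Positions are from GENCODE release 44 on GRCh38, which differs from the release of the authors, and 19041 of 19114 tested genes matched. Members, tissue lists and motifs were chosen with earlier results of these data known. All tested members were named. From each list the called genes with a mean of at least 20 were named, or the gene with the highest mean where there was none. Genes named besides these were picked after their values were seen. They are MITF, TEK, ROBO4, PECAM1, CDH5, EBF1, CD22, CR2, NKG7, GJA5 and GATA3. BCL11A, ZBTB7A, HBB, E2F6, MAX, RYBP, the genes at 0 and the markers are also among them. Alternatives were DESeq2 1.42.0, voom in limma 3.58.1, other scalings and filters, no fold limit, the replicate block and leaving out each library.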

Additional observations from a re-analysis of the deposited data

How the results depend on the processing

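Of 263 recomputed log2 fold changes and differences of the tested members, 258 kept their direction and their call, 4 lost the call (all for SOX4, in the report) and 1 turned, SOX7 relative to its neighbours (-0.55). Differences from neighbours have no adjusted p. For these, only the direction and, in called members, a difference of 2-fold or more were required. Refits in which a member fell under the filter are not among the 263. Of the 9 members called, 8 were called with DESeq2, and 9 with each of the other scalings and with no filter. With a mean of at least 20 required, 5 were called, 1 of them higher and that one near 0 in WT, since fewer members were then tested, and over all genes 2861 were called in place of 4322. With no fold limit, 15 were called, 10 of them lower, and 12 of the members expressed in WT, where 58.3% of all tested genes passed that limit and 27.6% were lower. Leaving out 1 library gave 7 to 9 called, 3 to 4 higher, 4 to 5 lower, 2 to 3 near 0 and higher, and 5 to 6 expressed. The median of the tested members was -0.42, -0.32 with upper quartile scaling, -0.29 with library size scaling, -0.02 with no filter, -0.55 with a mean of at least 20 and -0.31 without WT replicate 3. A replicate block, whose numbers do not pair the libraries, left 9 members called and moved the adjusted p of TBX19 to 0.015. Members with few reads are limited by depth, and differences between clones cannot be told from those of genotype.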
